A study of Homo sapiens with 12 samples.

Results

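The response of HCT116 cells to TNF was measured here while the Mediator kinases were inhibited: 3 libraries of cells given TNF plus Senexin B were set against 3 libraries of cells given Senexin B, 6 of the 12 libraries in the series, chosen by their titles. HCT116 is an established human colorectal carcinoma line. Cells labelled TNF plus Senexin B had 1 hour in Senexin B at 1 µM, after which TNF-alpha at 10 ng/mL was present for 2 hours, so that the inhibitor was there for 3 hours in all. Cells labelled Senexin B had the same 3 hours of inhibitor at 1 µM and no cytokine. The other 6 libraries, 3 of TNF for 2 hours after 0.1% DMSO and 3 of control cells in 0.1% DMSO, share none of these libraries and serve below as the TNF response without the inhibitor.

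TNF binds its receptor TNFR1, and a complex of adaptors and ubiquitin ligases on the receptor activates the kinases TAK1 and IKK. IKK marks the inhibitor IkB-alpha for destruction, which frees NF-kB, a family of dimeric transcription factors, to enter the nucleus and switch on chemokine, adhesion and survival genes together with its own inhibitors. CDK8 and CDK19 are paralogous kinases of the Mediator complex, the bridge between transcription factors and RNA polymerase II, and Senexin B inhibits both. In epithelial cells of the colon, TNF is known for raising neutrophil chemokines and for a response that ends itself through NF-kB-induced brakes.

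The values are read counts per gene, given below as CPM, the counts scaled to a common library size with TMM factors that correct for composition. Total counts were 8401710 to 8787674 in TNF plus Senexin B libraries and 7986987 to 9281176 in Senexin B libraries, so that 1 CPM was about 8 to 9 counts. Replicates of either group differed by 1.23 to 1.78 in chi-square per degree of freedom, where counting error alone gives about 1, so none was a copy of another. The labels call the replicates biological without naming separate days or passages. The p-values rest on a spread estimated over all 12 libraries of the series, fitted together, and measure the spread among those libraries only. EPCAM, KRT8, KRT18 and CDH1 were detected, whereas the intestinal markers VIL1, CDX1, CEACAM5 and LGALS4 stood at 0 counts. The 16 epithelial markers summed to 4681 to 4735 CPM in TNF plus Senexin B libraries and to 4852 to 4946 CPM in Senexin B libraries. Blood cell markers summed to at most 0.714 CPM in TNF plus Senexin B libraries and 0.751 CPM in Senexin B libraries, fibroblast markers to 10.5 to 11.3 CPM and 10.6 to 12.3 CPM, and endothelial markers to 5.33 to 5.46 CPM and 5.01 to 7.33 CPM in the same order.

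TNF under Senexin B raised a compact group of inflammatory genes by large factors and moved a wider group by little. The chemokine CXCL8 rose 121-fold, the apoptosis inhibitor BIRC3 86.9-fold, the chemokine CXCL1 28.4-fold and TNFAIP3, which encodes the NF-kB brake A20, 21.3-fold. The falls were fewer and smaller, with ARID5B, a chromatin regulator, ID2, an inhibitor of differentiation factors, and AXIN2, a feedback inhibitor of Wnt signalling, among them. By edgeR's quasi-likelihood test with a Benjamini-Hochberg adjusted p under 0.05, which defines a call throughout, 779 of 13084 tested genes (5.95%) were called. Of these, 559 (4.27% of tested genes) were higher and 220 (1.68%) were lower. Calls of at least 2-fold numbered 99 higher (0.757%) and 12 lower (0.0917%). The median log2 fold change over all tested genes was -0.005. As these are bulk libraries, a change in the share of cells that express a gene and a change in RNA per cell cannot be told apart.

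The sizes were spread unevenly. At least 8-fold higher were 14 genes, 16 were 4 to 8-fold higher and 69 were 2 to 4-fold higher, while 361 of the called genes were higher by less than 1.5-fold. Among the lower genes 177 fell by less than 1.5-fold. The genes at least 8-fold higher had a median of 21.7 CPM in TNF plus Senexin B libraries, against 0.368 CPM in Senexin B libraries. Among them TNFRSF9, CCL20, CXCL8, CXCL1, CXCL2, IKZF3, SERPINA3 and GPR37L1 stood at no more than 0.712 CPM in any Senexin B or control library. They passed the filter on low counts only through libraries with TNF. The low median without TNF follows in part from that and from the choice by fold. The genes at least 2-fold lower were themselves low, with medians of 3.22 CPM in TNF plus Senexin B libraries and 7.28 CPM in Senexin B libraries. The counts of calls for falls were the less stable ones: without any 1 of the 6 libraries, 131 to 140 genes were called lower, and a DESeq2 Wald test called 102. Other fits called more genes lower, 291 with the 6 libraries alone and 328 without TNF replicate 1 and control replicate 1. With a replicate block and GC-corrected offsets 277 were called lower. Over all tested genes, the libraries of both groups did not overlap for 2863 (21.9%), of which 1501 (11.5%) were higher and 1362 (10.4%) lower. Each count of calls in a gene list below is to be read against the shares over all tested genes, 4.27% higher and 1.68% lower. Most genes named below follow a rule given with the processing. List members named without a call or a test, and C10orf55, CXCL16, DTX4, ELF3, EPHB3, IER5L, SOCS3, SOD2 and ZNRF3, were chosen after their values were seen.

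**Figure D1:**
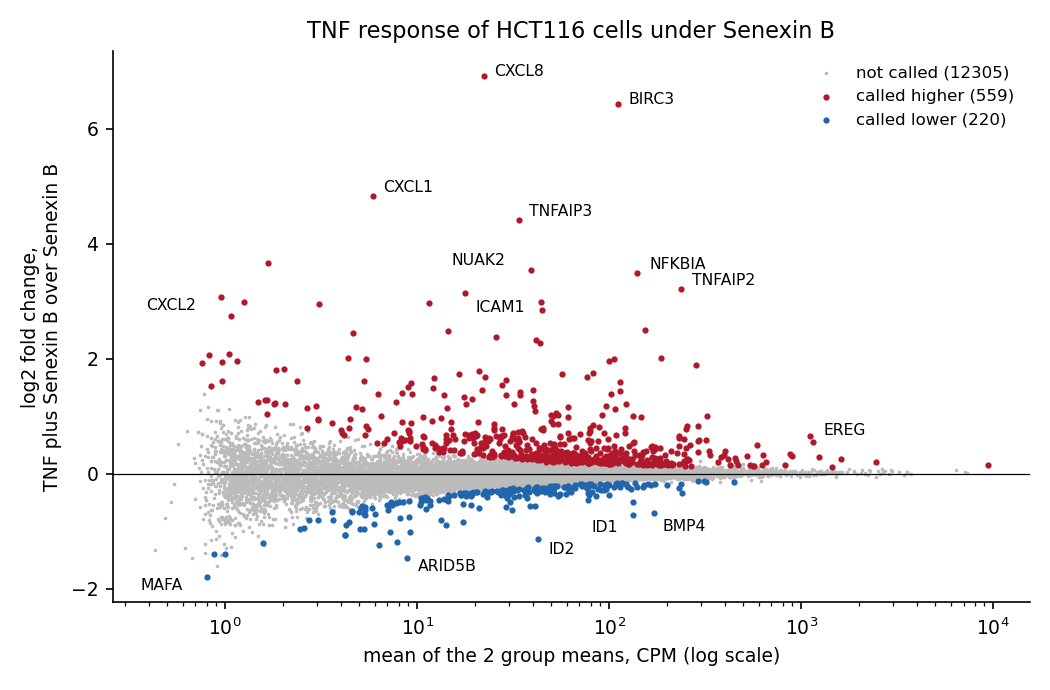
Log2 fold change of TNF plus Senexin B over Senexin B (y axis) against the mean of both group means in CPM (x axis, log scale), 1 point per tested gene, with called genes coloured. Of the genes drawn, CXCL8 and BIRC3 stand highest at 6.92 and 6.44, ARID5B lies at -1.47 among the lowest, and the 4 called genes with 3 or fewer counts in the Senexin B group are not drawn.

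Promoters of 7 of the most strongly raised genes are shown because NF-kB binds short sites of a known form close to such gene starts, and TNFAIP2 is included as one without those letters. Of the 15 largest rises 13 had a promoter in the table, of which 9 held the letters and 4 (TNFAIP2, NUAK2, SERPINA3 and GPR37L1) did not. Each run gives the 250 bases before the gene start in RefSeq (GRCh38.p14), on the strand of the gene and 5′ to 3′. Capitals mark matches on either strand to either of 2 motifs. The first is GGG, any 3 bases and TTCC, the second is GGAANTTCC with N for any base, and a run can match both. Chromosomal positions are chr4:73740319-73740568 (+) for CXCL8, chr4:73869143-73869392 (+) for CXCL1, chr11:102317234-102317483 (+) for BIRC3, chr6:137867009-137867258 (+) for TNFAIP3, chr14:35404750-35404999 (-) for NFKBIA, chr19:10270870-10271119 (+) for ICAM1 and chr14:103123211-103123460 (+) for TNFAIP2.
CXCL8: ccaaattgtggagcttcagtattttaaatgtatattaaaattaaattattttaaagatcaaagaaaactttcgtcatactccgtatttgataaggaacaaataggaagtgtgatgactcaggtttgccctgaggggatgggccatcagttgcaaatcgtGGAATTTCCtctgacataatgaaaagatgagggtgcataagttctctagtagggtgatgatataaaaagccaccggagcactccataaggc
CXCL1: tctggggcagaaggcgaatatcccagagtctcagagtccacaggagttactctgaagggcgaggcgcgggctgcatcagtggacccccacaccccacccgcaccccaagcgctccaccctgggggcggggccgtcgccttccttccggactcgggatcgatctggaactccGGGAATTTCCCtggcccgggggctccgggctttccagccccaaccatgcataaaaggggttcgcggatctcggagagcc
BIRC3: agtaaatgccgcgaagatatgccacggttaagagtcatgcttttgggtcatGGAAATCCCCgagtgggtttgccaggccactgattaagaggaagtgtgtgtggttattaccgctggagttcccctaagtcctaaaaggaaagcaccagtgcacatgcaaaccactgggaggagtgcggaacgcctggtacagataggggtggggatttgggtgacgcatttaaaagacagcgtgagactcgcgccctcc
TNFAIP3: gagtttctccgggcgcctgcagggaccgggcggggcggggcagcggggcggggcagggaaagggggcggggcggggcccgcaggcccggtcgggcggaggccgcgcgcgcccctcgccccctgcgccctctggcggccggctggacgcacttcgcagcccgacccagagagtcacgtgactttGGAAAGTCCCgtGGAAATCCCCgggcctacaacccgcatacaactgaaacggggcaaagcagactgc
NFKBIA: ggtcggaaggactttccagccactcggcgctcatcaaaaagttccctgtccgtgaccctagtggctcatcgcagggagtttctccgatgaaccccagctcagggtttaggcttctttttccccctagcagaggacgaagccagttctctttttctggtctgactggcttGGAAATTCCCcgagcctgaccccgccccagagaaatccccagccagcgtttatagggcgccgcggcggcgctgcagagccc
ICAM1: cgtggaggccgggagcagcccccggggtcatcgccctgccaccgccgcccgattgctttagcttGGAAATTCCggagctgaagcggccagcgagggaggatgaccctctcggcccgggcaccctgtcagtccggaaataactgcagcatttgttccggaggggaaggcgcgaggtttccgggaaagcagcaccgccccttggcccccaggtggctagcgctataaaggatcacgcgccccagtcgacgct
TNFAIP2: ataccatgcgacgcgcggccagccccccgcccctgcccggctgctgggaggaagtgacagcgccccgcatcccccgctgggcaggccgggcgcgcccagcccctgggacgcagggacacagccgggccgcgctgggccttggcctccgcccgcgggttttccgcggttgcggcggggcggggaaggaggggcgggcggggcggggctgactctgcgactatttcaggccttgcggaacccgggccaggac

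Counting bases back from the gene start, the run in CXCL8 begins at -91, that in CXCL1 at -79 and that in NFKBIA at -81. TNFAIP3 has a pair of runs, at -67 and -55. In BIRC3 and ICAM1 the runs lie farther out, at -199 and -186. CXCL1 and CXCL2 carry the same 11 letters, GGGAATTTCCC, and so does TNFRSF9, which encodes the costimulatory receptor 4-1BB. Over windows of 250 bases before to 50 after the start, 24 of 77 promoters (31.2%) of protein-coding genes called at least 2-fold higher held either motif, where 77 of the 91 such genes had a promoter in the table. The share was 17.5% (77 of 441) for all genes called higher and 5.14% (9 of 175) for genes called lower. It was 8.17% (777 of 9511) for all tested protein-coding genes and 7.02% over all 27195 promoters in the table. These are counts of letters, not of bound sites, and no match says only that the letters are not in this window.

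The chemokines are secreted proteins that draw leukocytes, and several of them rose by large factors. CXCL8, which attracts neutrophils, stood at 42.1, 46.1 and 43.7 CPM in TNF plus Senexin B libraries, against 0.234, 0.496 and 0.321 CPM in Senexin B libraries. Every TNF plus Senexin B library lay far above every Senexin B library, and the log2 fold change was 6.92 ± 0.50 (SE; adjusted p = 7.39e-36). CXCL1, a second neutrophil chemokine, had 10.6, 12.6 and 10.8 CPM with TNF plus Senexin B, against 0.586, 0.248 and 0.321 CPM with Senexin B, a log2 fold change of 4.83 ± 0.48. CCL20, which attracts cells bearing CCR6, had 142 counts over TNF plus Senexin B libraries and 0 over Senexin B libraries. Set against 3 counts over the group, as a group at 0 allows, it was at least 47.2-fold higher. CXCL2 and CXCL3, close relatives of CXCL1, rose at far lower levels: CXCL2 had 1.33, 1.76 and 2.08 CPM with TNF plus Senexin B, against 0.234, 0 and 0.321 CPM with Senexin B. CXCL3 had 1.93, 2.7 and 2.08 CPM with TNF plus Senexin B, against 0.117, 0.372 and 0.321 CPM with Senexin B. Reads of these near-identical relatives may be shared between them, and how the authors' counting treated such reads is not given in the sources used here.

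Of the 15 listed chemokine genes 6 passed the filter on low counts, and these were called higher. CXCL8, CXCL1, CXCL2, CXCL3 and CCL20 stood at no more than 0.712 CPM in any Senexin B or control library, so they passed the filter only through the libraries with TNF, and their count and median (3.95 over the 6) follow from that choice. The sixth, CXCL16, was well above the filter in every library and moved by 0.29 ± 0.06. The other 9 of the 15 listed chemokine genes did not pass the filter and had at most 2 counts in any of the 6 libraries. CXCL8, CXCL1, CXCL3 and CXCL2 lie in that order on chromosome 4, from base 73740506 to base 74099293 (GRCh38, GENCODE 29 positions). A further neighbouring pair was BIRC3 and BIRC2 on chromosome 11, 7808 bases apart.

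**Figure D2:**
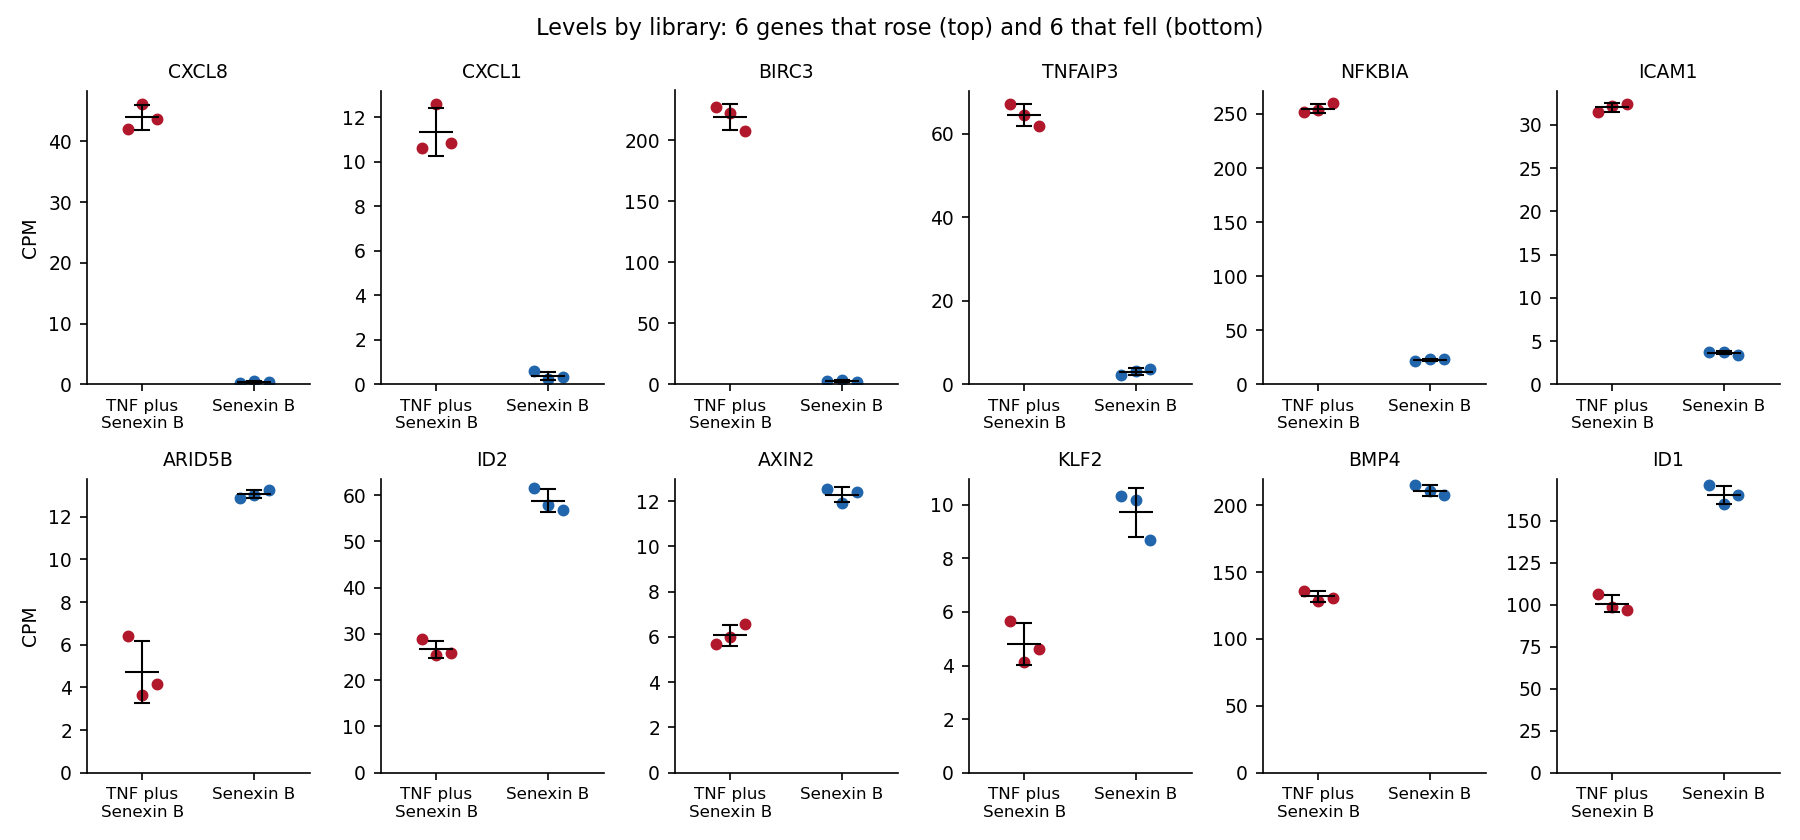
CPM (y axis, starting at 0) in each of the 3 TNF plus Senexin B libraries and 3 Senexin B libraries for 6 genes that rose and 6 that fell, where points are libraries and bars the mean and SD. No panel has overlapping groups, and BIRC3 averaged 219 CPM with TNF plus Senexin B and 2.55 CPM with Senexin B.

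NF-kB's own subunits and their inhibitors rose together. All 5 subunit genes were called higher, with a median log2 fold change of 1.33. RELB, the partner of the non-canonical pathway, had 80.4, 75.7 and 79.9 CPM in TNF plus Senexin B libraries, against 9.84, 9.92 and 9.85 CPM in Senexin B libraries (2.99 ± 0.11 on the log2 scale). NFKB2, the precursor of p52, had 299, 294 and 303 CPM with TNF plus Senexin B, against 76.6, 74.5 and 72 CPM with Senexin B. In both genes every TNF plus Senexin B library lay above every Senexin B library. NFKB1, the precursor of p50, rose 2.31-fold and REL 2.52-fold. RELA, the p65 subunit that TNF activates first, rose least, by 0.31 ± 0.06.

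Among the IkB family, which holds NF-kB in the cytoplasm or modifies it in the nucleus, 5 of 6 tested genes were called higher and the median log2 fold change was 1.5. NFKBIA, which encodes IkB-alpha, stood at 252, 253 and 260 CPM in TNF plus Senexin B libraries, against 21.7, 23.1 and 23.5 CPM in Senexin B libraries, a log2 fold change of 3.48 ± 0.06 (adjusted p = 1.82e-48). BCL3, a nuclear IkB that binds p50 and p52, rose 5.20-fold, NFKBIZ, a nuclear coactivator for secondary response genes, 3.07-fold and NFKBIE 2.60-fold. NFKBIB rose 1.19-fold, a call that was lost without Senexin B replicate 3 (adjusted p = 0.0776), and NFKBID, not called, had a log2 fold change of 0.00 ± 0.21.

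The ubiquitin-editing brakes split in the same way. TNFAIP3 had 67.1, 64.6 and 61.8 CPM in TNF plus Senexin B libraries, against 2.11, 3.22 and 3.64 CPM in Senexin B libraries (4.42 ± 0.17 on the log2 scale, adjusted p = 5.97e-37). TNIP1, a ubiquitin-binding partner of A20, rose 1.99-fold and CYLD, a deubiquitinase for K63 and linear chains, 1.81-fold. The remaining 6 of 9 tested brakes, among them OTULIN and ITCH, were not called and lay between -0.06 and 0.15 on the log2 scale.

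Upstream of NF-kB, 4 of 14 tested genes of the receptor complex (28.6%) were called higher and 1 (7.14%) lower, where the shares over all tested genes were 4.27% and 1.68%, and the median log2 fold change was 0.01. The 4 were BIRC3 and BIRC2, the ubiquitin ligases cIAP2 and cIAP1, CFLAR, the caspase-8 inhibitor c-FLIP, and TRAF1, an adaptor. TRAF1 stood at no more than 0.856 CPM in any Senexin B library and 1.88 CPM in any control library. It passed the filter on low counts with the help of libraries with TNF, here and among the survival genes below. BIRC3 stood at 227, 222 and 207 CPM in TNF plus Senexin B libraries, against 3.05, 3.1 and 1.5 CPM in Senexin B libraries (6.44 ± 0.33; adjusted p = 1.82e-10), and BIRC2 at 173, 177 and 162 CPM against 54.5, 57.3 and 56.8 CPM in the same order. BIRC2 thus rose 3.04-fold above a baseline that was already higher than that of BIRC3. The receptor TNFRSF1A itself was lower by little (-0.18 ± 0.06), and that call was lost in 8 of 15 alternative fits. Among 11 TAK1 and IKK kinases, MAP3K8, which links IKK to ERK, rose 4.02-fold and IKBKE, an IKK-related kinase, 2.83-fold, which is 18.2% of the list called higher, and the other 9 lay between -0.01 and 0.15.

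Survival genes overlap with that list. Of 12 tested, 7 were called higher and none lower, at a median of 0.46. Beside BIRC3, BIRC2, CFLAR and TRAF1 these were IER3 (0.65 ± 0.05), GADD45B (0.66 ± 0.09) and SOD2 (0.26 ± 0.05), the mitochondrial superoxide dismutase. BCL2L1, MCL1 and XIAP, which inhibit apoptosis in many cell types, were not called, with log2 fold changes of 0.04 ± 0.05, 0.11 ± 0.04 and -0.01 ± 0.07. BIRC3 rose most in this group.

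Adhesion and surface genes rose broadly: 10 of 15 tested were called higher, none lower, with a median log2 fold change of 0.78. ICAM1, the ligand of leukocyte integrins, had 31.5, 32.2 and 32.4 CPM in TNF plus Senexin B libraries, against 3.75, 3.72 and 3.42 CPM in Senexin B libraries (3.14 ± 0.16). CD83, an immunoglobulin-family surface protein, had 81.5, 78.8 and 74.7 CPM with TNF plus Senexin B, against 11.7, 10.5 and 10.3 CPM with Senexin B. CD83 rose 7.22-fold and ICAM1 8.81-fold, with no overlap between the groups. PLAU, the urokinase plasminogen activator, had 256, 267 and 261 CPM with TNF plus Senexin B, against 46, 46 and 45.5 CPM with Senexin B, although it overlaps C10orf55, and with the strand setting not given, reads of the pair may not be told apart. TNFRSF9 had 246 counts over TNF plus Senexin B libraries and 0 over Senexin B libraries, at least 81.8-fold higher. It stood at no more than 0.237 CPM in any control library, so it passed the filter only through libraries with TNF. Its place in the count of higher calls follows from that, and 15 of the 20 listed genes were tested. TNFRSF10B, the death receptor DR5, rose 1.72-fold. VCAM1 and SELE, TNF targets of endothelium, had 0 counts in all 6 libraries.

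Cytokine and growth factor genes were mixed. CSF1, which drives macrophage growth, had 19.2, 22.3 and 20.1 CPM in TNF plus Senexin B libraries, against 2.34, 3.47 and 2.14 CPM in Senexin B libraries (2.96 ± 0.19). LIF, an IL-6 family cytokine, rose 1.73-fold, and the EGF receptor ligands EREG and AREG 1.47-fold and 1.36-fold. Of 12 tested members 7 were called higher and BMP4 was called lower, at a median of 0.34. Among the 14 members that did not pass the filter, CSF2, which encodes GM-CSF, had 27 counts over TNF plus Senexin B libraries and 0 over Senexin B libraries, at least 8.97-fold higher. TNF itself had 10 counts with TNF plus Senexin B and 0 with Senexin B, at least 3.32-fold. IL1A had 12 counts with TNF plus Senexin B and 1 with Senexin B, a ratio of 12.0 (exact 95% interval 1.77 to 511). These intervals and bounds cover counting error only, and IL6 and IL1B had 0 counts throughout.

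TNFAIP2, NUAK2, IKZF3, SERPINA3 and GPR37L1 complete the 15 largest rises. TNFAIP2, a TNF-induced protein tied to membrane protrusions, had 430, 428 and 430 CPM in TNF plus Senexin B libraries, against 44.5, 47.2 and 46.4 CPM in Senexin B libraries (3.22 ± 0.05). NUAK2, an AMPK-related kinase, had 70.9, 78.8 and 66.8 CPM with TNF plus Senexin B, against 6.21, 7.19 and 5.14 CPM with Senexin B (3.55 ± 0.14). IKZF3, the lymphoid transcription factor Aiolos, had 64 counts with TNF plus Senexin B and 2 with Senexin B, a ratio of 31.9 (8.48 to 269). For SERPINA3, an acute phase protease inhibitor, 59 counts with TNF plus Senexin B stood against 3 with Senexin B, a ratio of 19.6 (6.39 to 97.8). GPR37L1, an orphan receptor, rose 12.6-fold to 3.1 ± 0.294 CPM with TNF plus Senexin B, against 0.238 ± 0.133 CPM with Senexin B (SD, n = 3 each), and lies 105670 bases from ELF3, another gene raised at least 2-fold. IKZF3, SERPINA3 and GPR37L1 stood at no more than 0.552 CPM in any Senexin B or control library. They thus passed the filter only through libraries with TNF, and their place among the largest rises follows in part from that. All 15 kept their call in each of 15 alternative fits.

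Immediate early genes, which respond within minutes to hours to many stimuli, moved both ways. Of 35 tested, 19 were called higher and 3 lower, with a median log2 fold change of 0.30. FOSL2 had 170, 169 and 159 CPM in TNF plus Senexin B libraries, against 58.8, 62.9 and 61.9 CPM in Senexin B libraries (1.44 ± 0.05), and JUN, its partner in AP-1, had 27.1, 26.3 and 29.1 CPM with TNF plus Senexin B, against 10.8, 12.4 and 10.5 CPM with Senexin B (1.30 ± 0.11). MAFF, ZFP36, ATF3 and KLF6 rose 2.75-fold, 2.69-fold, 2.27-fold and 1.99-fold. MYC had 701, 711 and 705 CPM with TNF plus Senexin B, against 561, 570 and 557 CPM with Senexin B, and so rose 1.25-fold at a high level. FOS stayed low, at 2.41, 1.88 and 3.34 CPM with TNF plus Senexin B and 3.28, 3.22 and 2.68 CPM with Senexin B, and was not called (adjusted p = 0.729). EGR1, the growth factor-induced zinc finger factor, was lower, at 23.9, 30 and 22.3 CPM with TNF plus Senexin B against 34.6, 37.1 and 35.1 CPM with Senexin B (-0.49 ± 0.12; adjusted p = 0.0108), a call that was lost without TNF plus Senexin B replicate 1 and without Senexin B replicate 2. KLF2, a flow-responsive factor, and IER5L were the other falls.

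Feedback on the kinases was likewise split by gene. Among 16 MAP kinase phosphatases and Sprouty-type inhibitors 5 were called higher and 2 lower, at a median of -0.04. DUSP5, a nuclear ERK phosphatase, had 424, 441 and 427 CPM in TNF plus Senexin B libraries, against 214, 209 and 217 CPM in Senexin B libraries. DUSP8 rose 2.80-fold and DUSP16, which acts on JNK, 1.59-fold. DUSP6, the cytoplasmic ERK phosphatase, was lower, at 107, 116 and 109 CPM with TNF plus Senexin B against 158, 157 and 150 CPM with Senexin B (-0.49 ± 0.05), as was DUSP4 (-0.20 ± 0.04). So ERK phosphatases moved in both directions, at 1.01 ± 0.04 for DUSP5 and -0.49 ± 0.05 for DUSP6 on the log2 scale.

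Factors that shorten the life of inflammatory mRNA rose in 6 of 14 tested cases, with none lower, at a median of 0.17. ZFP36, or tristetraprolin, had 47, 54 and 48.5 CPM in TNF plus Senexin B libraries, against 18.4, 19.5 and 17.8 CPM in Senexin B libraries, and ZC3H12A, the endonuclease Regnase-1, 12.2, 12.3 and 11.8 CPM against 3.28, 4.71 and 5.57 CPM in the same order. ZC3H12C, BTG2 and ZFP36L1 rose 1.66-fold, 1.62-fold and 1.49-fold. The RNA-binding proteins HNRNPD, ELAVL1 and KHSRP were not called and lay between -0.04 and 0.01.

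Interferon signalling genes rose in part. IRF1, a transcription factor induced by NF-kB and by interferon, had 65.1, 72 and 71.6 CPM in TNF plus Senexin B libraries, against 14.9, 13.8 and 12.8 CPM in Senexin B libraries (2.33 ± 0.09). Both chains of the interferon-gamma receptor rose, IFNGR2 2.63-fold and IFNGR1 1.70-fold, and IRF2 and SOCS2 rose 1.98-fold and 1.54-fold. Of 19 tested factors and receptors 9 were called higher and 1, the feedback inhibitor SOCS3, lower (-0.38 ± 0.10), at a median of 0.27. STAT2, a factor that carries the interferon signal, was not called, at 0.03 ± 0.11.

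Among interferon-stimulated genes 8 of 21 tested were called higher and none lower, at a median of 0.25. The RNA sensors IFIH1 (MDA5) and DDX58 (RIG-I) rose 3.17-fold and 2.33-fold, GBP3, a guanylate-binding protein, 4.25-fold from under 1 CPM, and OAS3 and TRIM25 1.35-fold and 1.42-fold. GBP3 stood at no more than 0.663 CPM in any Senexin B or control library. It thus passed the filter only through libraries with TNF, and its place in the count follows from that. ISG15, IFIT1 and IFI6, classical members, were not called and lay between -0.12 and 0.05. In MHC class I presentation 6 of 18 were called higher and none lower, among them the peptide transporter TAP1 at 1.71-fold, its tether TAPBP at 1.52-fold, B2M at 1.31-fold, ERAP2 at 3.55-fold and HLA-B at 1.19-fold. The immunoproteasome genes PSMB9 and PSMB10 were not called, at 0.31 ± 0.30 and 0.45 ± 0.30.

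**Figure D3:**
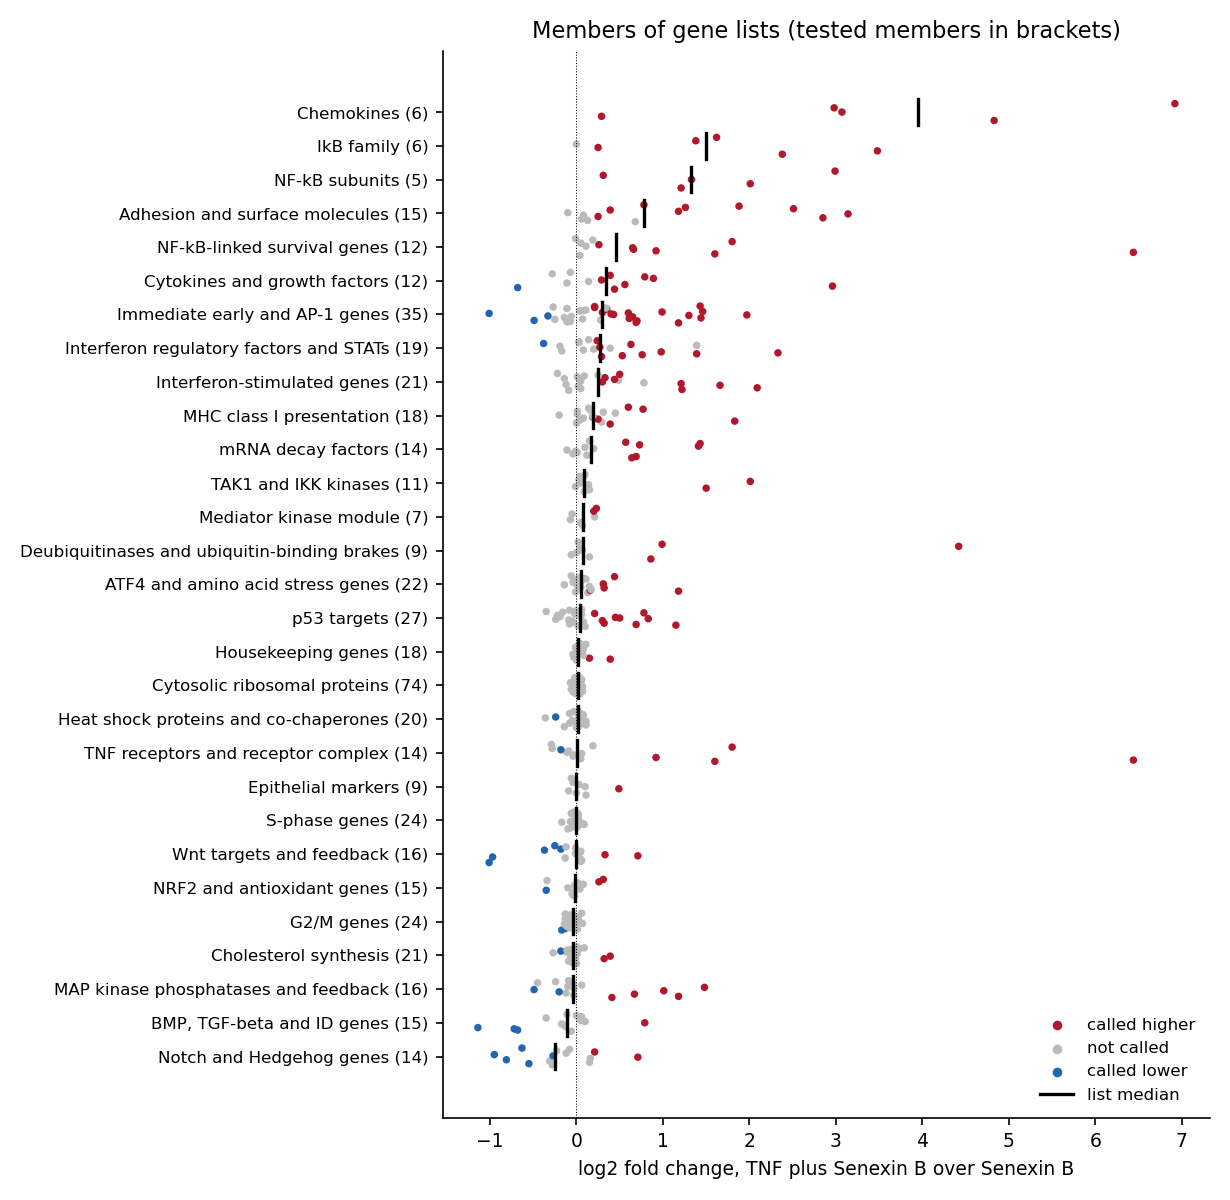
Log2 fold change of TNF plus Senexin B over Senexin B for each tested member of the gene lists with at least 5 tested members, with list medians as bars and the number of tested members in brackets. The tested chemokines (median 3.95, of which 5 of 6 passed the filter only with TNF), the IkB family (1.5) and NF-kB subunits (1.33) lie at the top and Notch and Hedgehog genes (-0.25) at the bottom, while CCL20 and TNFRSF9 count in the medians but are not drawn.

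Falls were found among developmental signalling genes. ID2 had 28.8, 25.4 and 25.9 CPM in TNF plus Senexin B libraries, against 61.6, 57.9 and 56.8 CPM in Senexin B libraries (-1.14 ± 0.08; adjusted p = 5.98e-19), and ID1, a BMP target of the same family, 106, 98.6 and 96.7 CPM against 171, 160 and 165 CPM in the same order (-0.72 ± 0.05). BMP4, the ligand, had 136, 129 and 131 CPM with TNF plus Senexin B, against 215, 210 and 207 CPM with Senexin B. These 3 were the lower calls among 15 tested BMP, TGF-beta and ID genes, and the list's median was -0.11. ID3 was not called, at -0.13 ± 0.07.

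In the Wnt list 5 of 16 tested genes (31.2%) were called lower and 2 (12.5%) higher, with a median of -0.01. Over all tested genes the shares were 1.68% lower and 4.27% higher. AXIN2 had 5.66, 6 and 6.57 CPM in TNF plus Senexin B libraries, against 12.5, 11.9 and 12.4 CPM in Senexin B libraries (-1.01 ± 0.15), and RNF43, the ligase that removes Wnt receptors, 72.6, 69.1 and 65.1 CPM against 82.1, 93.5 and 90.8 CPM in the same order. ZNRF3, the paralogue of RNF43, EPHB3 and SOX4 made up the other falls. SOX4 lost its call in 5 of 15 alternative fits, and the number called lower dropped to as few as 2 over the alternative fits. The higher calls were JAG1 and MYC. NKD1, CCND1 and TCF7 were not called and lay between -0.01 and 0.05.

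Notch and Hedgehog genes had the lowest list median, -0.25, with 5 of 14 called lower and 2 higher. HES1, a Notch target repressor, had 9.76, 9.52 and 9.57 CPM in TNF plus Senexin B libraries, against 16.1, 17 and 17.7 CPM in Senexin B libraries (-0.81 ± 0.13). LFNG, which adds sugars to Notch, PTCH1, the Hedgehog receptor, DTX4 and the ligand JAG2 fell by 0.95, 0.63, 0.55 and 0.27 on the log2 scale. JAG1, another Notch ligand, moved the other way, at 158, 148 and 145 CPM with TNF plus Senexin B against 88.3, 89.4 and 97.7 CPM with Senexin B.

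Of the 12 largest decreases, ARID5B led among genes of moderate level, at 6.39, 3.64 and 4.15 CPM in TNF plus Senexin B libraries, against 12.9, 13 and 13.3 CPM in Senexin B libraries (-1.47 ± 0.17). Replicate 1 with TNF plus Senexin B was the least reduced of the 3, and still lay well below each Senexin B library. KLF2 had 5.66, 4.12 and 4.61 CPM with TNF plus Senexin B, against 10.3, 10.2 and 8.67 CPM with Senexin B. ZNF488, RAB3A, a vesicle GTPase, DDIT4L, an inhibitor of mTOR signalling, and LPAR5, a receptor for lysophosphatidic acid, fell to between 0.422 and 0.479 of their Senexin B level. MAFA, ZNF837, ST20-AS1 and PPFIA4 stood at or below 1.06 CPM in every TNF plus Senexin B library, and each of these 4 lost its call in 4 to 10 of the alternative fits that tested it. The other 8 kept theirs in all of them.

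By absolute amount, EEF1A1, a translation elongation factor, gained most, with 9467, 9863 and 10360 CPM in TNF plus Senexin B libraries, against 8787, 8761 and 9149 CPM in Senexin B libraries, although its log2 fold change was only 0.15 ± 0.03 and its call was lost with GC-corrected offsets. ERRFI1, a feedback inhibitor of the EGF receptor, had 1344, 1388 and 1376 CPM with TNF plus Senexin B, against 858, 846 and 892 CPM with Senexin B (0.66 ± 0.03). The scaffold AKAP12 rose by 0.21 ± 0.04, a call lost with the replicate block and GC-corrected offsets (adjusted p = 0.126). The largest losses in CPM were those of BMP4, ID1, the glucose transporter SLC2A1 (-0.34 ± 0.04), the KIT ligand KITLG (-0.15 ± 0.04) and DUSP6. KITLG lost its call without Senexin B replicate 3 (adjusted p = 0.141).

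Lists outside the inflammatory response differed in their shares of calls, to be read against 4.27% higher and 1.68% lower over all tested genes. None of 74 cytosolic ribosomal protein genes and none of 24 S-phase genes was called by edgeR or by DESeq2, with medians of 0.02 and -0.01, and in each list 1 gene had an unadjusted edgeR p under 0.05. In G2/M, AURKA and BIRC5 were called lower out of 24 genes, by 0.17 and 0.13 on the log2 scale, and both calls were lost in 6 of 15 alternative fits. The number of G2/M genes called lower ran from 0 to 7 over those fits, with 7 under the replicate block with GC-corrected offsets and none by DESeq2, and 7 had an unadjusted edgeR p under 0.05. Among 20 heat shock genes HSPA1B was called lower, at -0.24 ± 0.06, whose near-identical copy HSPA1A may share its reads, and the call was lost without TNF plus Senexin B replicate 3 (adjusted p = 0.0629). Cholesterol synthesis (2 higher and 1 lower of 21) and NRF2 targets (2 higher and 1 lower of 15) had medians of -0.04 and -0.02. Of 27 p53 targets 9 (33.3%) were called higher, at a median of 0.04, among them PLK2, TNFRSF10B and BBC3, which encodes the BH3-only protein PUMA and rose 2.22-fold. Of 22 ATF4 targets 5 (22.7%) were called higher, ATF3, STC2, CEBPB, DDIT4 and ATF4 itself, and 3 to 6 over the alternative fits. CEBPB lost its call in 4 of 15 of these and DDIT4 in 3.

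The targets of the inhibitor were themselves measured. CDK8 had 41, 44.7 and 42.8 CPM in TNF plus Senexin B libraries, against 44.9, 44.8 and 45.1 CPM in Senexin B libraries, and CDK19 had 23.9, 23.2 and 22.5 CPM with TNF plus Senexin B, against 22.4, 25.2 and 20 CPM with Senexin B. Neither was called (-0.07 ± 0.07 and 0.05 ± 0.09). Within the Mediator kinase module, MED13 and MED13L were called higher out of 7, by 0.20 ± 0.04 and 0.23 ± 0.05. MED13 lost its call without Senexin B replicate 1 (adjusted p = 0.0502) and MED13L with the replicate block and GC-corrected offsets (adjusted p = 0.14).

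Higher and lower genes differed in base composition and length. Median transcript GC content was 47.8% for the genes called higher and 56.0% for those called lower, against 48.8% over all tested genes with a GC value (12223 genes, 93.4%). The genes raised at least 2-fold were richer in GC, at 52.7%. Median gene length was 38238 bases for genes called higher and 17613 bases for genes called lower, against 32513 bases over all. Across genes, which are not independent, log2 fold change and GC content had a Spearman's rho of -0.185. For TNF against control, without the inhibitor, the rho was -0.411. For the difference between the changes with and without the inhibitor it was 0.288. With offsets that remove a smooth GC trend from each library, 653 genes were called higher and 230 lower under Senexin B, and 738 of the 779 calls were shared.

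The response under Senexin B can be set beside that to TNF given without the inhibitor. An overlap of calls tests no difference, since a gene called with the inhibitor and not without it need not differ. The interaction test given further below is the test of a difference. Without the inhibitor, 1309 of 13084 genes (10%) were called between TNF and control, 760 higher (5.81%) and 549 lower (4.2%). Of the 559 genes called higher under Senexin B, 409 were also called higher without it, 73.2% of the 559 and 53.8% of the 760. For falls, 126 genes were on both lists, 57.3% of the 220 and 23% of the 549. These shares moved with the fit. With GC-corrected offsets, 66% of the rises and 33.4% of the falls without the inhibitor were also called under it. In a fit without TNF replicate 1 and control replicate 1 they were 73.3% and 42.4%. The shares of the calls under Senexin B were then 62.3% and 43.3%. Without TNF plus Senexin B replicate 3, 50.7% of the rises and 16.5% of the falls without the inhibitor recurred. No gene was called in opposite directions. TNF replicate 1 and control replicate 1 differed from the other replicates of their groups by 2.58 to 2.92 in chi-square per degree of freedom. In a fit without both, the order of the totals turned round, with 1036 genes called under Senexin B and 937 without it. That fit has fewer libraries for TNF against control but all of those under Senexin B, so it cannot separate these replicates from lost libraries. With any 1 TNF or control library left out, TNF against control had 876 to 1348 calls. The fewest came without control replicate 3 and the most without TNF replicate 2. Without TNF replicate 1 there were 945 and without control replicate 1 there were 1190. With GC-corrected offsets and all 12 libraries the order stayed, at 883 calls under Senexin B and 1044 without it.

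The sizes can be set side by side. The 99 genes raised at least 2-fold under Senexin B had a median log2 fold change of 1.61 there and 1.49 without the inhibitor, and 91 of them were also called higher without it. Since these genes were chosen on the first of those values, the medians are a description. NFKBIA rose by 3.48 with and 3.54 without the inhibitor, TNFAIP3 by 4.42 and 4.38, RELB by 2.99 and 3.01, and NFKB2 by 2.01 and 2.10 on the log2 scale. For NFKBIA the difference of the differences was -0.06 with a 95% interval from -0.23 to 0.12, and for NFKB2 it was -0.09 (-0.23 to 0.05). CXCL1 was less certain: 4.83 with Senexin B and 5.97 without, a difference of -1.14 whose interval ran from -2.52 to 0.24. CXCL8 differed by -0.22 (-1.52 to 1.07) and BIRC3 by -0.28 (-1.27 to 0.71). None of these differences was called.

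**Figure D4:**
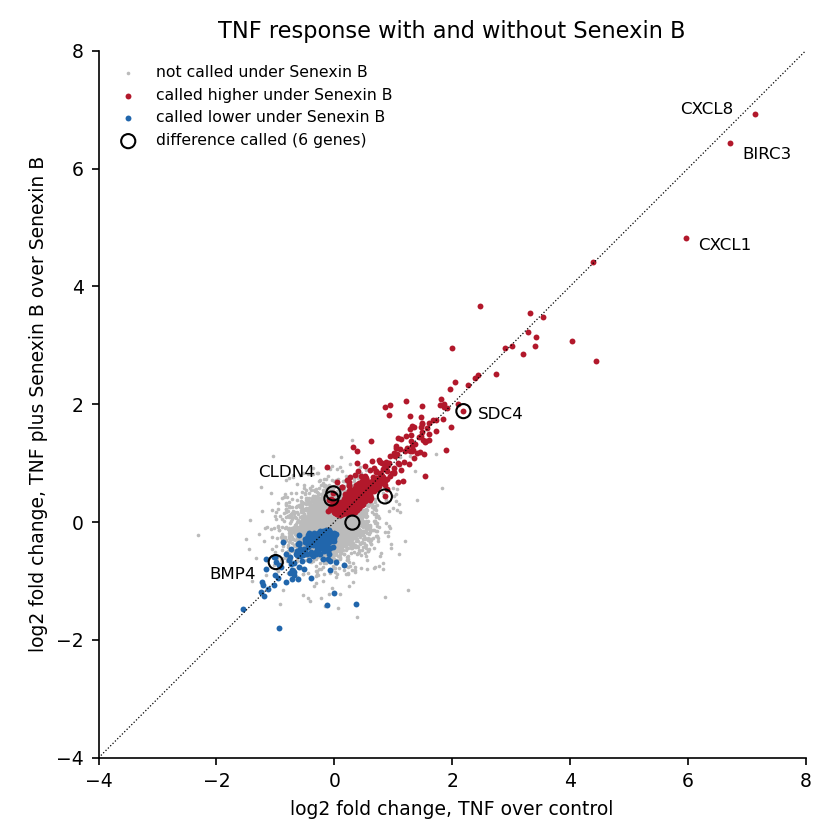
Log2 fold change of TNF plus Senexin B over Senexin B (y axis) against that of TNF over control (x axis), 1 point per tested gene, with the dotted line marking equal change and circles the 6 genes whose difference was called. CXCL8, at 6.92 and 7.15, lies near the line and CXCL1, at 4.83 and 5.97, below it.

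The interaction test, which asks gene by gene whether the change under the inhibitor differs from the change without it, called 6 of 13084 genes (0.0459%), 3 with a higher (0.0229%) and 3 with a lower (0.0229%) fold change under Senexin B. At an unadjusted p under 0.05 there were 796 of 13084 genes, where a share of about 0.05 would pass with no difference in any gene. The count dropped to 2 without TNF plus Senexin B replicate 1 or 3 or Senexin B replicate 2 or 3, and to 3 without control replicate 1 or 2, and it was 9 without TNF replicate 2. CLDN4, a tight junction claudin, had 148, 148 and 151 CPM in TNF plus Senexin B libraries, against 113, 99.2 and 106 CPM in Senexin B libraries, and 117, 118 and 113 CPM in TNF libraries, against 117, 118 and 116 CPM in control libraries. It thus rose under the inhibitor (0.49 ± 0.05) and was not called without it (-0.01 ± 0.05), a difference of 0.50 ± 0.07 (adjusted p = 4.41e-05). IRF2BPL, a nuclear RING-finger protein, followed the same pattern with 83.3, 80.1 and 84.2 CPM in TNF plus Senexin B libraries, against 68.2, 56.7 and 62.5 CPM in Senexin B libraries, and 53.9, 66 and 64.7 CPM in TNF libraries, against 64, 66.9 and 61.9 CPM in control libraries (difference 0.45 ± 0.09, adjusted p = 0.0316).

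BMP4 fell less under the inhibitor. It averaged 132 ± 3.87 CPM with TNF plus Senexin B and 211 ± 3.99 CPM with Senexin B, beside 88.2 ± 3.25 CPM with TNF and 176 ± 3.05 CPM in control cells (SD, n = 3 each), so that log2 fold changes were -0.68 and -0.99 (difference 0.32 ± 0.07, adjusted p = 0.0446). That call was lost in 12 of 20 alternative fits and IRF2BPL's in 10, whereas those of CLDN4 and STC2 were kept in all 20.

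STC2, a secreted glycoprotein induced by ATF4, rose less under the inhibitor. It stood at 203, 197 and 197 CPM in TNF plus Senexin B libraries, against 150, 148 and 143 CPM in Senexin B libraries, and at 188, 203 and 200 CPM in TNF libraries, against 112, 112 and 102 CPM in control libraries (difference -0.42 ± 0.07, adjusted p = 0.000375). Its log2 fold changes were 0.44 under the inhibitor and 0.86 without it. ASNS, asparagine synthetase and likewise an ATF4 target, had 225 ± 7.83 CPM with TNF plus Senexin B and 227 ± 4.42 CPM with Senexin B, beside 239 ± 8.73 CPM with TNF and 193 ± 5.82 CPM in control cells (difference -0.32 ± 0.06, adjusted p = 0.0117). SDC4, a heparan sulphate proteoglycan of focal adhesions, had 447 ± 10.3 CPM with TNF plus Senexin B and 121 ± 5.55 CPM with Senexin B, beside 597 ± 8.9 CPM with TNF and 131 ± 1.88 CPM in control cells. Its log2 fold changes were 1.88 under the inhibitor and 2.19 without it (difference -0.31 ± 0.06, adjusted p = 0.0117). ASNS lost its call in 6 of 20 alternative fits and SDC4 in 5.

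**Figure D5:**
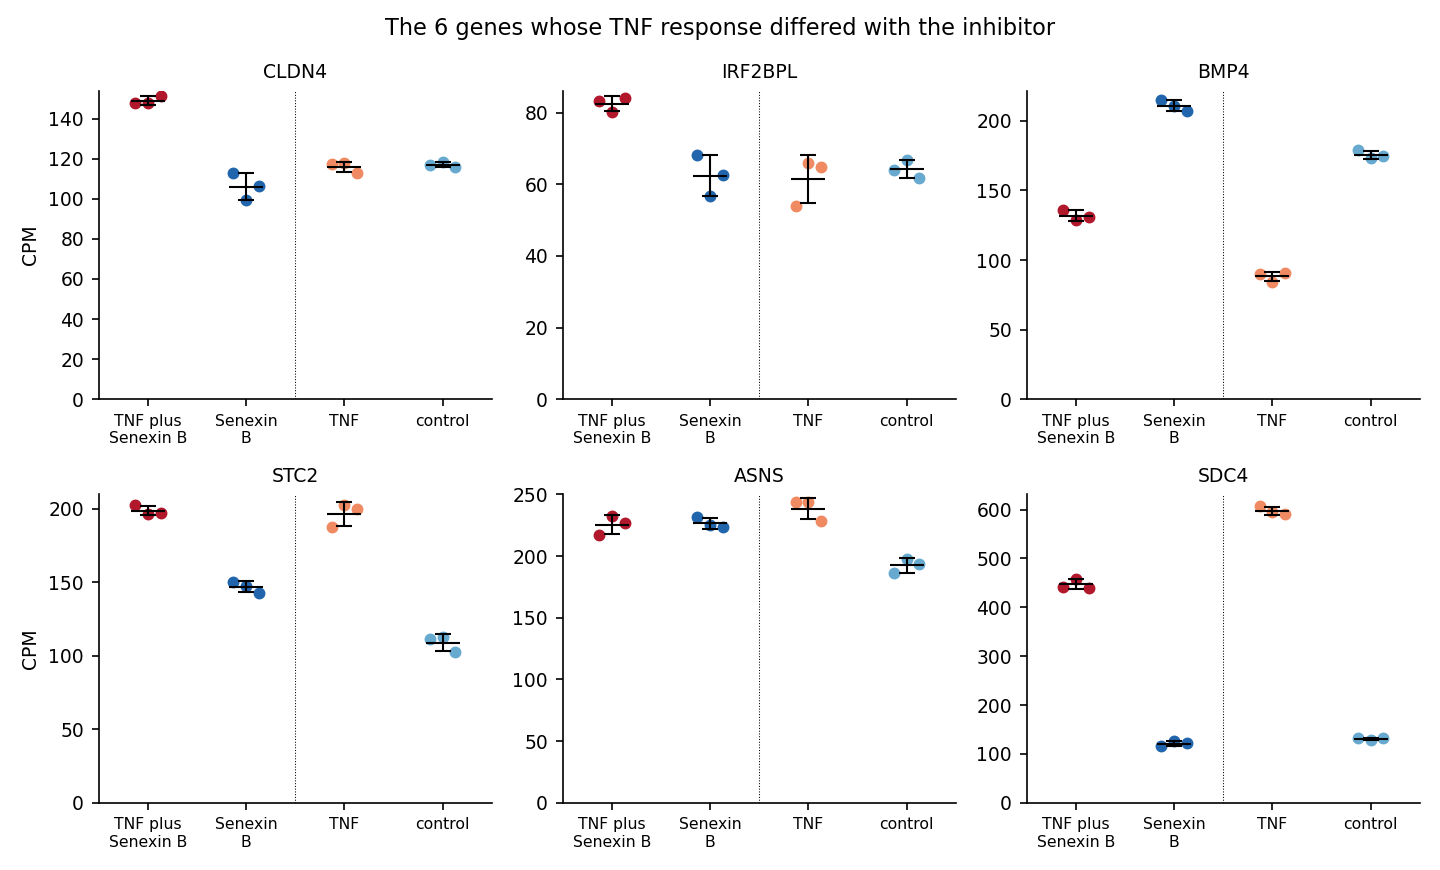
CPM (y axis, starting at 0) by library in all 4 groups for the 6 genes whose TNF response differed with the inhibitor, where points are libraries, bars the mean and SD, and the dotted line parts the pair with Senexin B from the pair without. For CLDN4 the mean was 149 CPM with TNF plus Senexin B and 106 CPM with Senexin B, beside 116 CPM with TNF and 117 CPM in control cells.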

How the data were processed

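RNA-seq libraries of HCT116 cells were made with a TruSeq RNA kit, per the labels' protocols. Per the submitters' processing notes, STAR 2.4, SAMtools 1.2 and featureCounts of Subread 1.4.6 were used, with the hg38 build. The authors deposited raw counts per gene. The annotation release, the strand setting and the treatment of multi-mapping reads are not given in the sources used here. Counts of all 12 libraries were fitted with edgeR 4.0.16 in R 4.3.3 (quasi-likelihood, robust, TMM, filterByExpr, 1 coefficient per group, no block), and p-values were adjusted by Benjamini-Hochberg over 13084 tested genes. The scripts were tested on simulated data. Genes were named by rule: the 15 largest increases and 12 largest decreases among called genes whose groups do not overlap and whose larger group mean reaches 1 CPM, the 5 largest gains and 5 largest losses in CPM, up to 5 called members per list by adjusted p, 19 genes given in any case, and the called interaction genes. The members and lists were chosen with earlier results of these data known. Positions and GC content came from GENCODE 29 by symbol (36156 of 56634 symbols matched), and promoters from RefSeq. Alternatives were DESeq2 1.42.0 (Wald test or its size factors), other filters on low counts, 6 or 10 libraries, a replicate block, GC-corrected offsets, and each library left out in turn. Results for some genes are not reported here.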

Additional observations from a re-analysis of the deposited data

Results flagged for a closer look

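The TNF response differed with the inhibitor, by edgeR's quasi-likelihood test of the interaction (adjusted p under 0.05), for 6 genes, and each was picked out for that reason. A positive difference means a higher log2 fold change under Senexin B than without it. CLDN4 differed by 0.50, IRF2BPL by 0.45 and BMP4 by 0.32. SDC4 differed by -0.31, ASNS by -0.32 and STC2 by -0.42. In CLDN4 and STC2 the call was kept in all 20 alternative fits. ASNS, BMP4 and IRF2BPL lost their calls without control replicate 1, and IRF2BPL also without TNF replicate 1.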

How the results depend on the processing

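No named gene that was called changed sign under the alternatives run. Values near 0 that were not called did, such as CDK19 (-0.03 to 0.13) and the Wnt and receptor complex list medians (-0.06 to 0.02 and -0.02 to 0.04), and the order of the totals under Senexin B and without it turned round with 10 libraries. Of 121 named genes called, 101 kept their call in every alternative and 20 lost it in at least 1. The number of genes called lower moved to 102 with DESeq2's Wald test and to 131 to 140 with 1 library left out, against 220. It moved up to 291 with the 6 libraries alone, which called 978 genes in all, and to 328 with 10 libraries. With the replicate block and GC-corrected offsets it was 277. DESeq2's Wald test called 521 genes in all, and leaving out 1 library gave 583 to 605. For TNF against control, DESeq2's Wald test called 850 genes. The interaction called 10 genes with no filter on low counts, and 2 to 9 with 1 library left out. TNF plus Senexin B and Senexin B libraries of the same replicate number correlated at -0.024, -0.004 and 0.061 in their deviations from the group means. Pairs with different numbers correlated at -0.067 to 0.069. Replicates 2 and 3 differed least within both groups, at 1.24 and 1.23 in chi-square per degree of freedom. Whether libraries of the same number share a batch is not given by the labels and was not tested. With the replicate block, 827 genes were called, 582 higher and 245 lower, with 99 and 14 of these at least 2-fold, and the interaction called 6. TNF against control then had 1470. At 7986987 to 9281176 counts per library, genes with few counts had wide intervals, and genes at 0 in a group gave bounds only.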
